A study of Homo sapiens with 6 samples.

Results

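The 44 genes described here encode the machinery that makes ribosomes in the nucleolus, together with the RNA polymerase I apparatus that transcribes ribosomal RNA. They were chosen by gene name on the array, out of 36328 gene names for cell RNA, and each is read at its brightest probe over the 6 arrays. RNA was immunoprecipitated by its m3G or m7G cap from MOLT-4 cells, an established T-cell acute lymphoblastic leukaemia line, and the eluate was hybridised to 1-colour Agilent expression arrays. Mock-transfected cells gave 3 arrays and cells overexpressing NUDT16, a nudix hydrolase that removes RNA caps, gave the other 3, with no other treatment named for either group. The labels do not say whether replicates were separate cultures, so p-values measure the spread between these arrays, which may be technical. Capped-RNA signal can change through the amount of an RNA as well as through its cap or its recovery, and these cannot be told apart without the input RNA, which was not analysed here.

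Ribosome assembly begins when polymerase I, with its factors UBTF, SL1 and RRN3, transcribes the long ribosomal RNA precursor. Small nucleolar ribonucleoproteins (snoRNPs) then modify it: C/D box particles place 2′-O-methyl groups and H/ACA particles convert uridine to pseudouridine. The small subunit processome and the 60S assembly factors fold, cut and pack the precursor into the ribosomal subunits. The messenger RNAs of these proteins are ordinary polymerase II transcripts with an m7G cap, and many of the genes are known targets of MYC, which binds the E-box letters CACGTG.

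The promoters show how common that motif is among the members. Of the 44 members, 37 matched a RefSeq promoter window (GRCh38.p14, from 250 bases before to 50 bases after an annotated start), and 16 of the 37 (43.2%) held CACGTG, which reads the same on both strands. The share was 8.77% of 27305 genes with a window and 13.2% of the 7553 tested genes with a matching name. In 10 of the 16 the first E-box listed lay after the start. The 100 bases before the start are shown for 6 members, with CACGTG in capitals: NCL, UTP18, UTP20 and DDX21, whose signal was lower in every pair, and NOP10 and NHP2, whose signal was higher in every pair.
NCL, chr2:231464485-231464584, minus strand: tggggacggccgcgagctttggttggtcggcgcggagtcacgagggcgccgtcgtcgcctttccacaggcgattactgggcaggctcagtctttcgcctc
UTP18, chr17:51260446-51260545, plus strand: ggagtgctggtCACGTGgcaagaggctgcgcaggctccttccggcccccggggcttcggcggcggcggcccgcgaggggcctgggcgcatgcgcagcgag
UTP20, chr12:101280005-101280104, plus strand: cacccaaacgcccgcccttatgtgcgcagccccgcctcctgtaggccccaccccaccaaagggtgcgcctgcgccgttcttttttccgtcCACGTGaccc
DDX21, chr10:68956547-68956646, plus strand: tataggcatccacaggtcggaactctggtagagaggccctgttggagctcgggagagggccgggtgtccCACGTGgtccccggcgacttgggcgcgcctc
NOP10, chr15:34343137-34343236, minus strand: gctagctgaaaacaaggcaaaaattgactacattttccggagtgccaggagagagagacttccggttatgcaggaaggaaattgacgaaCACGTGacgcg
NHP2, chr5:178153886-178153985, minus strand: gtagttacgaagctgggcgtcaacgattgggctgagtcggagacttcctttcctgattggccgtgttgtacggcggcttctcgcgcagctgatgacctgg
In the stretches shown the E-box lies at position -89 in UTP18, -10 in UTP20, -31 in DDX21 (the start of its 2 that has the motif) and -11 in NOP10, while UTP18 and NOP10 each hold another outside the stretch (at -170 in NOP10), and these letters do not occur in the stretches of NCL and NHP2. The median log2 difference was -0.35 over the 15 tested members with an E-box, of which 10 were lower, and -0.50 over the 20 tested members without one, of which 16 were lower. Over all tested genes with a window the medians were -0.09 with and -0.12 without the motif.

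One array, NUDT16 replicate 2, stood apart. It had 14.6% of spots well above background (the scanner software's call), against 39.3% to 52.0% on the other 5 arrays, and no spot for cell RNA was saturated. Its 75th percentile of the probes detected everywhere was 224 intensity units, against 2700 to 7720 elsewhere. Among T-lineage markers 8 of 10 were well above background on all 6 arrays, CD3D and LCK among them. Of 9 markers of B, myeloid, erythroid and epithelial cells, 4 (MS4A1, CSF1R, HBB and EPCAM) were not above background on any array, and CD79A was above it on all 6. Neither of the 2 NUDT16 probes was well above background on any array, so the transfected gene did not check the labels. The probe for its pseudogene NUDT16P1 was well above background on the 3 NUDT16 arrays only, with -2.50, -3.27 and -2.14 there and -9.44, -9.25 and -9.96 in mock on the log2 scale described below (difference 6.91, SE 0.60, limma adjusted p 0.00082). The 6 arrays lay on 3 slides, each with the mock and the NUDT16 array of 1 replicate number, and are compared below as groups and also as these same-numbered pairs.

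The members were well detected. All 44 were well above background on mock replicates 1 and 3 and on NUDT16 replicate 3, 43 on NUDT16 replicate 1, 42 on mock replicate 2 and 25 on NUDT16 replicate 2. On that last array 16.3% of all gene names were detected. A gene was tested if it was well above background on every array of at least one group, and 42 members passed among 13696 genes. The exceptions were the 40S assembly factors UTP15, missed on both arrays of replicate 2, and PNO1, missed on these and on NUDT16 replicate 1. For 17 tested members NUDT16 replicate 2 was the array without detection, so their values there lie at background.

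Signals below are log2 intensities relative to the 75th percentile of the probes detected on all 6 arrays, so that 0 is that percentile of the same array; they are compared within a gene only. Of the 42 tested members, 30 were lower and 12 higher in NUDT16 arrays, with a median difference (NUDT16 minus mock) of -0.47. Among all 13696 genes 54.2% were lower and the median was -0.06. Without scaling all 42 members and 98.5% of all genes were lower, and with normexp background correction 21 members and 19.4% of all genes, with medians for the members of -1.47 and -0.01 beside -1.06 and 0.46 for all genes. Among members well above background on all 6 arrays the differences ran from -1.25 (NOLC1) to 0.51 (NHP2L1). With limma and Benjamini-Hochberg adjustment over all genes, 0 of 42 members were called at 0.05 and 0 had an unadjusted p under 0.05. The background was 0.0073%, a single gene called higher (NUDT16P1), with 0.0% called lower and 7 genes at an unadjusted p under 0.05. Every member had overlapping groups; those of 0.263% of all genes did not overlap with NUDT16 lower, and those of 0.336% with NUDT16 higher.

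The same-numbered pairs moved more evenly than the groups. In 25 of the 42 members (59.5%) the NUDT16 array was lower in all 3 pairs, against 25.8% of all genes tested, and in 6 (14.3%) it was higher in all 3, against 17.4%. The members' median was -0.66 in pair 1, -0.53 in pair 2 and -0.14 in pair 3, where all genes stood at -0.32, 0.12 and -0.03. Lower members numbered 32, 29 and 32 of 42 in pairs 1, 2 and 3, beside 69.8%, 46.2% and 53.1% of all genes. Blocking on the replicate number, limma gave 10 members an unadjusted p under 0.05, all of them lower, which is 23.8% of the members against a background of 7.62% lower and 8.53% in either direction; adjusted over all genes, 0 members were called. Of these 10, 5 (DDX21, HEATR1, UTP6, UTP18 and UTP20) lay at background on NUDT16 replicate 2. Among the 25 members well above background on every array 5 had such a p, against 4.95% of the 5654 genes detected as widely. A log2 difference of -1 or lower was found in 7 members (16.7%, background 6.47%), 4 of them detected on every array (background among genes so detected 3.75%), and one of 1 or higher in 0 (background 1.45%). The median moved to -0.19 without NUDT16 replicate 1 (all genes 0.04) and to -0.84 without NUDT16 replicate 3 (all genes -0.21), and 7 members rather than 12 were higher without mock replicate 2. Without NUDT16 replicate 2 the median was -0.38, against -0.12 for all genes. The 25 members well above background on every array had a median of -0.35 with 16 lower, 15 of them in all 3 pairs, where the 5654 genes had 0.18 with 39.6% lower and 18.4% lower in all 3 pairs.

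**Figure D1:**
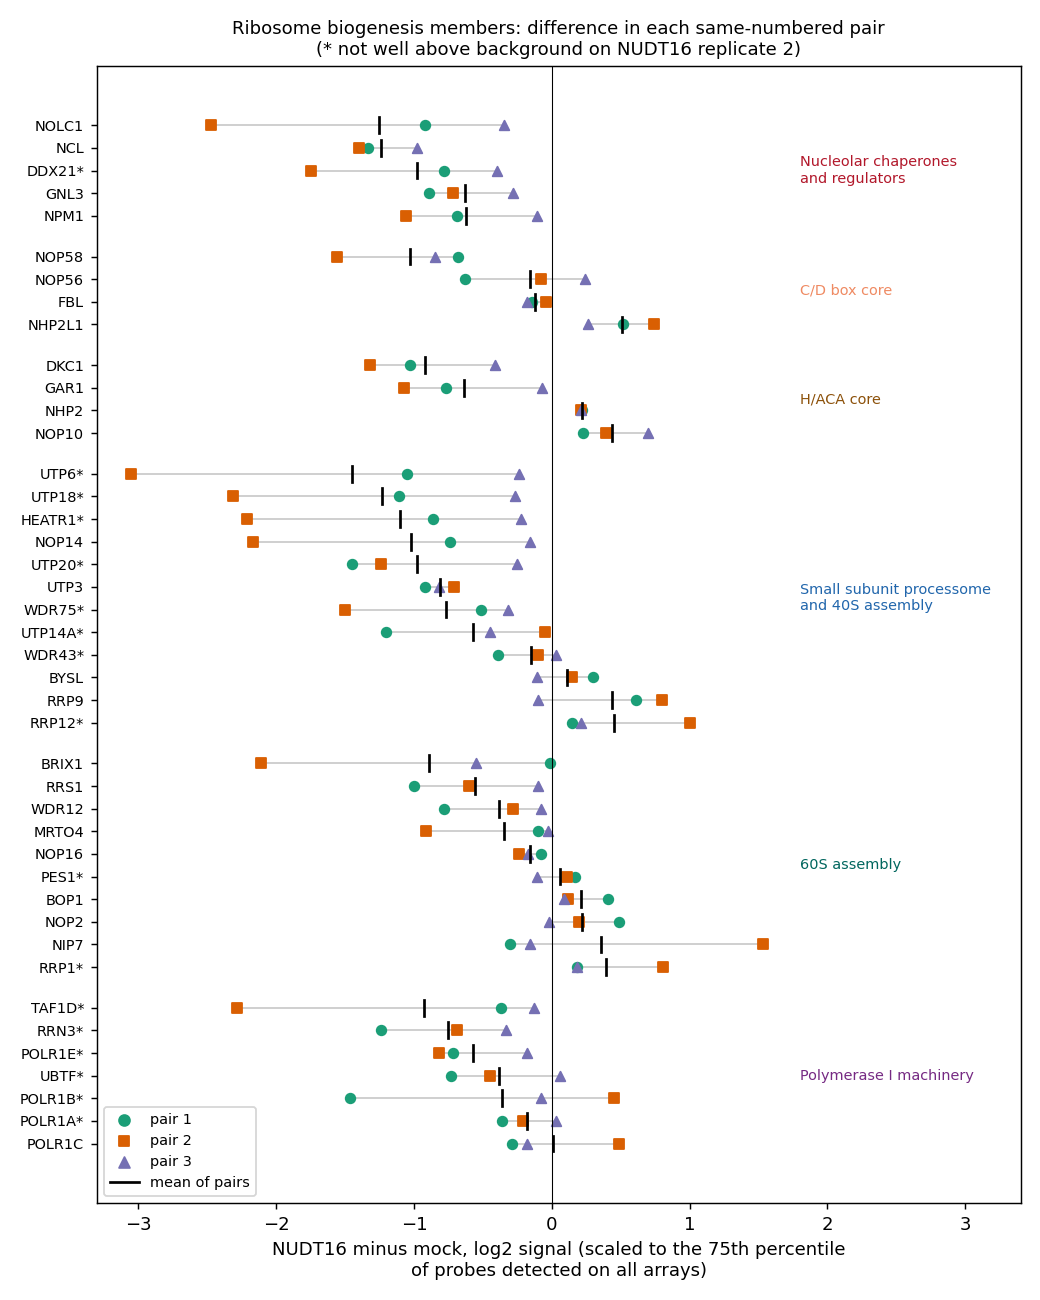
Difference in log2 scaled signal, NUDT16 minus mock, for each of the 42 tested members in the 3 same-numbered pairs (circle, square and triangle for pairs 1, 2 and 3; black bar, mean of the pairs), grouped by role. All 5 nucleolar chaperones and regulators lie left of 0 in every pair, and an asterisk marks members at background on NUDT16 replicate 2, whose pair 2 points have no exact size.

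**Figure D2:**
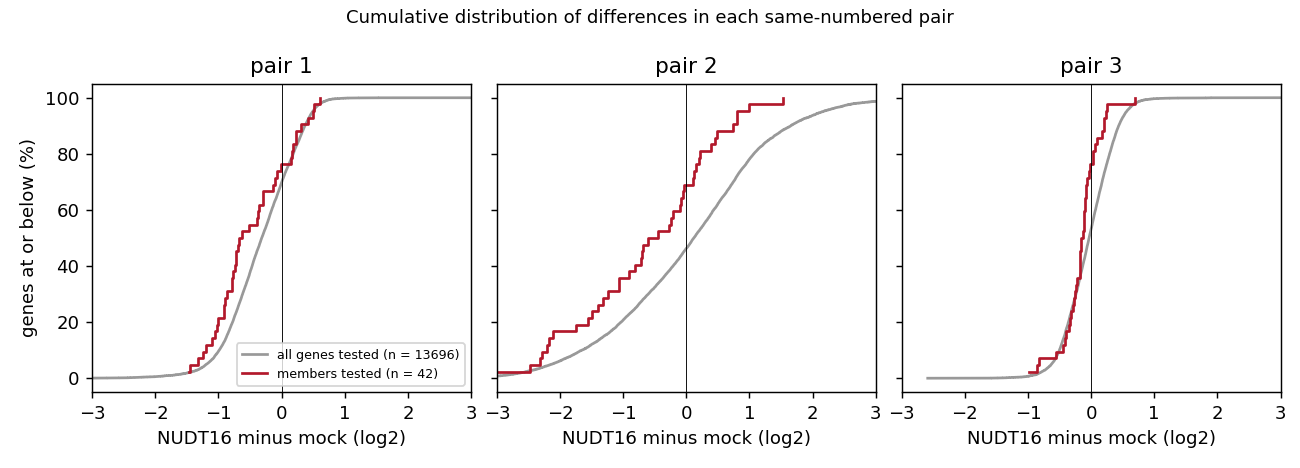
Share of genes (%) at or below each log2 difference in pairs 1, 2 and 3, for the 42 tested members (red) and all 13696 tested genes (grey). The members' curve lies left of the grey one at the middle of each panel, with medians of -0.66, -0.53 and -0.14 against -0.32, 0.12 and -0.03.

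The nucleolar chaperones and regulators were the only role with every tested member lower in all 3 pairs (5 of 5), with a median difference of -0.98. Nucleolin (NCL) binds ribosomal RNA precursors and supports polymerase I transcription. The NCL signal was 1.21, 2.42 and 3.21 on mock replicates 1, 2 and 3 and -0.13, 1.02 and 2.22 on the NUDT16 replicates. Each NUDT16 array lay below its slide partner, with pair differences of -1.33, -1.40 and -0.98, while replicate 1 was low and replicate 3 high in both groups, so that the groups overlapped. The difference was -1.24 (SE 0.75, limma adjusted p 0.998), 0.423-fold, with means of 2.28 ± 1.01 in mock and 1.04 ± 1.17 in NUDT16 arrays (SD, n = 3). With the block the SE was 0.30 and limma's adjusted p 0.488. In a paired fit on replicates 1 and 3 alone, which leaves out the slide with the weak array, NCL was the only member called of 42 (-1.16, SE 0.28, limma adjusted p 0.025). That fit called 1.73% of all genes lower and 0.0365% higher. Its SE was 0.28 to 0.30 in every tested member, so it rests mainly on variance pooled over genes, not on NCL's own spread. Without the block the same arrays called 0 genes. The NCL probe A_23_P5551 lies at chr2:232319721-232319780 (hg19, minus strand).

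NOLC1, a nucleolar phosphoprotein that binds snoRNPs, read -1.87, -0.36 and 0.08 in mock and -2.79, -2.83 and -0.27 in NUDT16 arrays. Pair 2 carried the widest gap at -2.47, against -0.92 and -0.35 in pairs 1 and 3. Its difference was -1.25 (SE 0.81, limma adjusted p 0.998), and -0.64 on replicates 1 and 3. The RNA helicase DDX21, which acts at polymerase I and in rRNA processing, stood at -3.17, -2.99 and -1.78 in mock and -3.95, -4.74 and -2.18 in NUDT16 arrays. The value of -4.74 is from the weak array, where DDX21 was not well above background. The difference of -0.98 (SE 0.75) became -0.42 without that array and -0.59 on replicates 1 and 3. Nucleophosmin (NPM1), a chaperone for histones and ribosomal proteins, had 3.26, 4.36 and 3.96 in mock and 2.57, 3.30 and 3.84 in NUDT16 arrays. All 4 tested NPM1 probes were lower, with differences from -1.27 to -0.62. NPM1 has many processed copies in the genome, and how far they share its probes was not tested. GNL3 (nucleostemin), a nucleolar GTPase, differed by -0.63 (SE 0.59).

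The snoRNP core proteins split in both particles. In the C/D box particle, the methyltransferase fibrillarin (FBL) was nearly level, with 4.69, 5.79 and 5.03 in mock and 4.55, 5.74 and 4.85 in NUDT16 arrays. Pairs of arrays differed by no more than 0.18 while replicates within a group spread over more than that. The paralogous scaffold proteins NOP56 and NOP58 had differences of unlike size: NOP56 differed by -0.16 (SE 0.59), with its 3 tested probes between -0.21 and 0.22, and NOP58 by -1.03 (SE 0.73, limma adjusted p 0.998). NOP58 had -1.19, 0.57 and 0.82 in mock and -1.87, -0.99 and -0.03 in NUDT16 arrays. It was lower in every pair (-0.68, -1.56 and -0.85), and its unadjusted p with the block was 0.0188; the difference between NOP56 and NOP58 was not tested. NHP2L1 (now SNU13), the protein that first binds the kink-turn of the RNA, went the other way, with 0.59, -0.13 and -0.32 in mock and 1.11, 0.61 and -0.06 in NUDT16 arrays. It was higher in each pair, by 0.52, 0.74 and 0.26, and its difference was 0.51 (SE 0.61, limma adjusted p 0.998). A second NHP2L1 probe had 0.11.

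In the H/ACA particle, the pseudouridine synthase dyskerin (DKC1) read -0.44, -0.45 and 0.57 in mock and -1.47, -1.77 and 0.16 in NUDT16 arrays. All 3 pairs were lower (-1.03, -1.32 and -0.41), giving a difference of -0.92 (SE 0.68, limma adjusted p 0.998). GAR1, which helps substrate binding and release, had -0.24, 0.62 and 0.35 in mock and -1.01, -0.45 and 0.28 in NUDT16 arrays, with a difference of -0.64 (SE 0.61). Its pair 3 was nearly level at -0.07. The small partners NHP2 and NOP10 were higher in every pair. NHP2 had 2.40, 1.91 and 1.54 in mock and 2.62, 2.13 and 1.75 in NUDT16 arrays, a step of 0.22, 0.21 and 0.21 in the pairs. NOP10 had 1.28, 0.85 and -0.40 in mock and 1.51, 1.24 and 0.30 in NUDT16 arrays. The differences were 0.22 (SE 0.59, and 0.29 with the block) and 0.44 (SE 0.66, and 0.30 with the block). Neither passed the test, with limma adjusted p of 0.998 for each and 0.716 and 0.532 with the block, and without scaling of the arrays they and every other member were below 0, as was the median of all genes at -1.06.

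**Figure D3:**
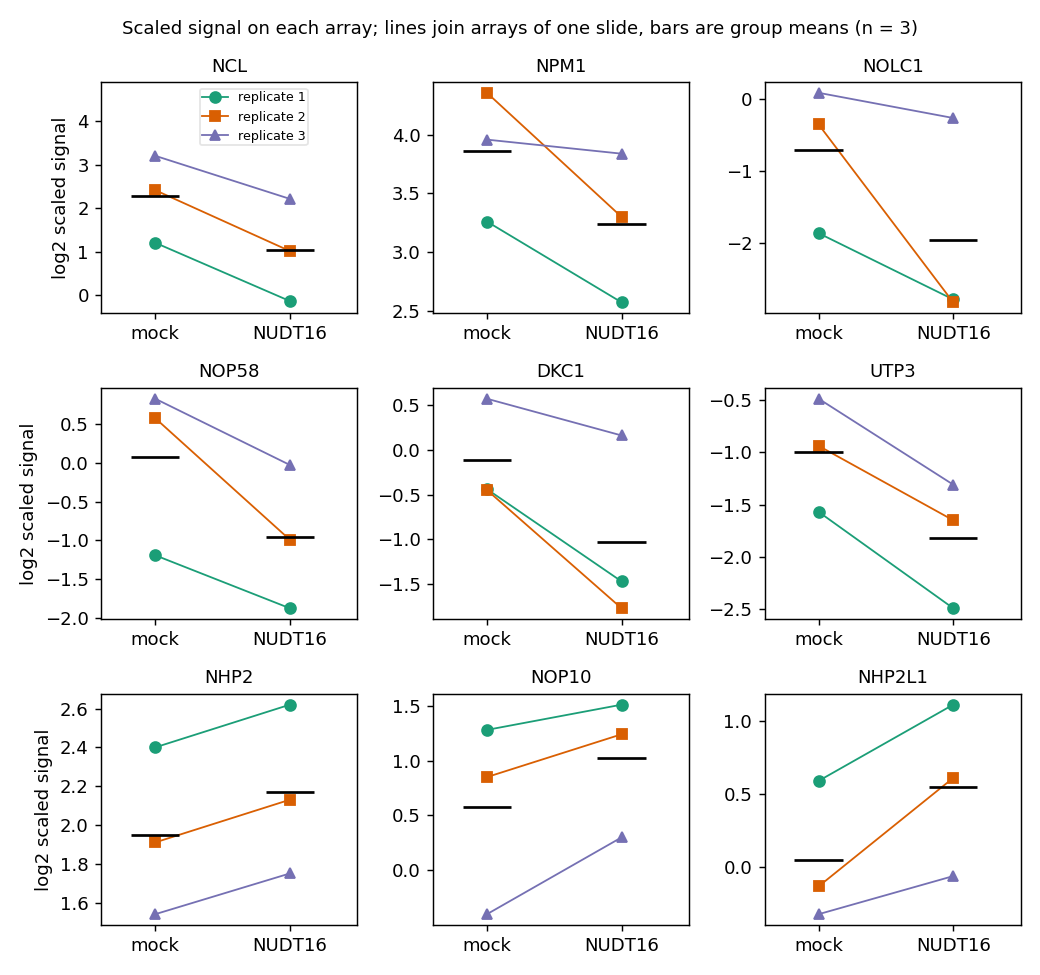
Log2 scaled signal of 9 members on each array, with lines joining the mock and NUDT16 arrays of the same slide and black bars for group means (n = 3). NCL, NPM1, NOLC1, NOP58, DKC1 and UTP3 slope down on every slide and NHP2, NOP10 and NHP2L1 slope up, while the slides differ from each other by as much as the groups or more.

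Factors of the small subunit processome and 40S assembly had a median difference of -0.79 over 12 tested members, 9 of them lower. Only UTP3, NOP14, RRP9 and BYSL of these were detected on every array, and they split, at -0.81, -1.02, 0.44 and 0.11. The rest passed the filter through the mock arrays and lay at background on NUDT16 replicate 2, so their pair 2 differences have no exact size. Without that array the role's median was -0.52, against -0.12 for all genes. On replicates 1 and 3 it was -0.49, against -0.19 for all genes. UTP3 (SAS10), which was detected on every array, was the most even, with -1.57, -0.94 and -0.49 in mock and -2.49, -1.65 and -1.31 in NUDT16 arrays. Its pairs were at -0.92, -0.71 and -0.82 and its difference was -0.81 (SE 0.62; limma adjusted p 0.998, and 0.488 with the block). NOP14, a processome scaffold, had -0.80, -0.13 and 0.12 in mock and -1.54, -2.30 and -0.04 in NUDT16 arrays, and both of its probes were lower (-1.02 and -1.20). Most of its difference came from pair 2, at -2.17, and on replicates 1 and 3 it was -0.45.

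UTP6 and UTP18, subunits of the UTP-B complex, also had their widest gap in pair 2. For UTP20 the gap was -1.45 in pair 1 and -1.24 in pair 2. The pair 2 value has no exact size, since UTP20 lay at background on NUDT16 replicate 2. UTP6 read -4.10, -2.39 and -3.03 in mock and -5.16, -5.44 and -3.27 in NUDT16 arrays; its difference of -1.45 (SE 0.74) was -0.65 on replicates 1 and 3 and -0.23 with normexp. UTP18 read -2.10, -1.20 and -1.16 in mock and -3.22, -3.51 and -1.44 in NUDT16 arrays (difference -1.23, SE 0.69; -0.69 on replicates 1 and 3). UTP20, a large scaffold protein, read -5.01, -4.59 and -3.39 in mock and -6.45, -5.83 and -3.63 in NUDT16 arrays (difference -0.98, SE 0.79; -0.85 on replicates 1 and 3). None of these 3 was well above background on NUDT16 replicate 2, and each was lower in all pairs. The UTP20 difference ranged with the processing, from 0.12 with normexp background correction to -1.74 when fitted to the authors' deposited values and -2.03 with quantile normalization. The early-binding subunits HEATR1, WDR75 and WDR43, which link the processome to rRNA transcription, differed by -1.10, -0.77 and -0.15. All 3 were at background on NUDT16 replicate 2. Without that array, but with its slide partner kept, they were at -0.33, -0.52 and 0.11. On replicates 1 and 3, without that slide, they were at -0.54, -0.41 and -0.18. UTP14A, an activator of the helicase DHX37, differed by -0.57. The exceptions were RRP12, an export factor, at 0.45, RRP9, a U3 snoRNP protein, at 0.44, and BYSL, a late 40S factor, at 0.11. RRP12 was higher in all pairs, and RRP9 and BYSL in 2 of 3.

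The 60S assembly factors centred on 0, with 5 of 10 lower and a median of -0.05. BRIX1, needed for 5S particle docking and peptide tunnel formation, had -3.10, 0.48 and -0.31 in mock and -3.12, -1.63 and -0.86 in NUDT16 arrays. Its replicate 1 arrays were far below the others in both groups and nearly equal to each other, and the difference of -0.89 (SE 0.91) came mainly from pair 2. RRS1, which brings the 5S particle to the pre-60S subunit, had -2.25, -1.46 and -1.85 in mock and -3.25, -2.06 and -1.95 in NUDT16 arrays (difference -0.56, SE 0.62). Members of the PeBoW complex, which processes 32S rRNA, were at 0.06 (PES1), 0.21 (BOP1) and -0.38 (WDR12). The rRNA methyltransferase NOP2 was at 0.22, RRP1 at 0.39, NOP16 at -0.16 and MRTO4, a stalk placeholder, at -0.35. NIP7, which works in pre-rRNA processing, was at 0.36, although it was lower in pairs 1 and 3 (-0.30 and -0.16) and 1.53 higher in pair 2.

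Polymerase I genes had a median of -0.38 over 7 members, with 6 lower. All 7 were lower in pair 1, 5 in pair 2 and 5 in pair 3. The 6 lower members passed the filter through the mock arrays and lay at background on NUDT16 replicate 2. Their pair 2 differences therefore have no exact size. The role's median was -0.32 without that array and -0.34 on replicates 1 and 3, against -0.12 and -0.19 for all genes. The subunit POLR1C, which is shared with polymerase III and was the only one detected on every array, read -1.41, -1.95 and -1.52 in mock and -1.70, -1.46 and -1.70 in NUDT16 arrays, a difference of 0.01 (SE 0.57, limma adjusted p 0.999). The catalytic subunits POLR1A and POLR1B stood at -0.18 and -0.36, and POLR1E at -0.57. TAF1D, part of the promoter factor SL1, was at -0.93, with -2.28 in pair 2, and at -0.25 on replicates 1 and 3. RRN3, the factor that makes polymerase I competent to initiate, was at -0.75 (SE 0.75) and lower in all pairs, but its second probe was at 0.10; RRN3 also has pseudogene copies. UBTF, which binds along ribosomal DNA, was at -0.38.

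Of the 7 members with more than 1 tested probe, 3 had all probes lower, 2 all probes higher and 2 (NOP56 and RRN3) probes of both signs.

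The direction of a member followed the base composition of its probe. All 9 tested members with a probe over 45% GC were higher, and 30 of the 33 at or under 45% were lower; NHP2, NIP7 and POLR1C were the exceptions. Among all genes 81.3% were higher over 45% GC and 67.5% were lower at or under it. The rank correlation of difference and probe GC (Spearman's rho, across genes, which are not replicates and share the arrays) was 0.47 over the 42 members and 0.41 over all 13696 genes. By pair it was 0.49, 0.46 and 0.25 for the members and 0.33, 0.40 and 0.00 for all genes. Probe GC had a median of 41.7% in lower members, 50.8% in higher members and 45% in all genes. With a smooth GC trend taken out of each array, the members' median was -0.38 against -0.09 for all genes, and 35 of 42 were lower. NCL was then at -1.06, NOP58 at -0.90, NOP10 at 0.30 and NHP2L1 at 0.12. The higher members PES1, BOP1, BYSL, RRP1, RRP9 and NOP2 changed sign, to -0.39, -0.24, -0.21, -0.06, -0.01 and -0.01. WDR43 went the other way, to 0.04, while NHP2, RRP12, NIP7 and POLR1C stayed higher. The limit of 45% and this correction were chosen after the values were seen, and the part of GC in the differences was not tested further.

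**Figure D4:**
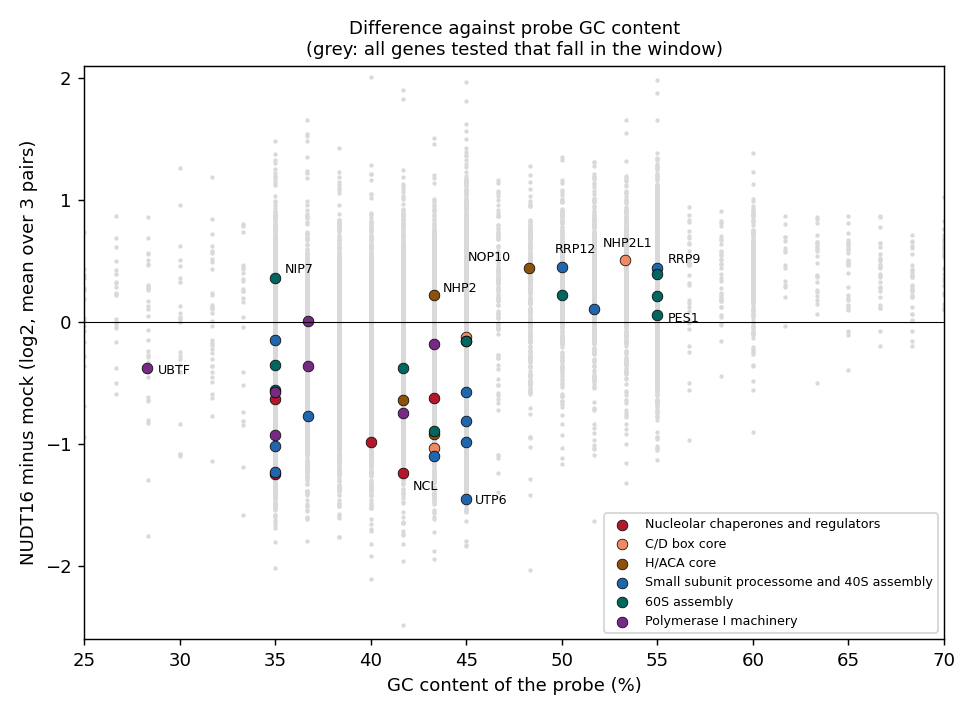
Mean log2 difference over the 3 pairs against the GC content of the probe (%), for the tested members coloured by role and all tested genes within the axis limits in grey. Members over 45% GC lie at or above 0.06, and those lower than -1 all have probes of 35% to 45% GC.

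Other genes of ribosome assembly were also more often lower than higher. Small subunit genes were mostly lower in both lists (9 of 12 members and 23 of 30 others), while the 60S and polymerase I medians were unlike. A list of 102 further genes had 96 tested, of which 68 were lower (70.8%, against 54.2% of all genes) with a median of -0.45. In all 3 pairs 45 of the 96 were lower, against 25.8% of all genes. By role the medians were -0.34 for 30 other small subunit genes, -0.54 for 42 other 60S genes, -0.52 for 10 snoRNP assembly factors and 0.06 for 14 other polymerase I genes, which include subunits shared with polymerases II and III. Beside these the members had -0.05 in 60S assembly and -0.38 in the polymerase I role, and the differences between lists were not tested. With limma 0 of the 96 were called over all genes and 0 had an unadjusted p under 0.05. Under the block 20 had an unadjusted p under 0.05, all lower, where 7.62% of all genes did so. The groups of 1 gene did not overlap, with NUDT16 lower (0.263% of all genes). The paired fit on replicates 1 and 3 called 1 gene lower (1.73% of all genes). How many of the 96 lay at background on NUDT16 replicate 2 was not counted. Among those detected on every array, the lowest were RSL1D1, at -1.61 (SE 1.0), and GTPBP4, a GTPase of 60S assembly, at -1.22 (SE 0.70). Highest were DDX56, a helicase of 60S assembly, at 0.71 (SE 0.65), and the shared polymerase subunit POLR2L, at 0.56 (SE 0.61). RSL1D1 and GTPBP4 were lower, and DDX56 and POLR2L higher, in all 3 pairs, and every limma adjusted p was 0.998.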

How the data were processed

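Per the file headers, Feature Extraction 10.7.3.1 read arrays of Agilent design 039494, whose probe coordinates are on hg19. The deposited intensity has its background and spatial trend taken out, holds surrogates for dim spots, and is not scaled between arrays. The table of values that the authors deposited is in log2 (column medians 6.06 to 6.18, rank order equal to median spot minus background); its normalization is not given in the sources used here, and it served as an alternative.

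Control spots and spots with outlier marks were left out, log2 intensities of spots were averaged per probe, and from each array the 75th percentile of its values was subtracted, taken over 6582 probes well above background on all 6 arrays, because under 50% of spots were detected on 4 arrays. The brightest probe stood for a gene. The test was that of limma 3.58.1 under R 4.3.3 (lmFit, eBayes, two-sided, Benjamini-Hochberg at 0.05), without a block; the procedure was tested on simulated data. The number of arrays limits the precision. Over 13696 genes, arrays with the same number deviated together (correlations 0.84, 0.40 and 0.76), so the numbers pair the arrays; slide and scan follow the number.

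Values on every array are given for the 2 members of largest difference in each role among those well above background on all 6 arrays, for members with an unadjusted p under 0.05 with the block (at most 3 more a role), and for FBL, NPM1, NHP2 and NOP10, added after their values were seen. The members, lists and settings were chosen with earlier results of these data known. Current symbols come from RefSeq (GRCh38.p14, all 44 members matched); no hg19 gene models were used, so exon positions are left out.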

Additional observations from a re-analysis of the deposited data

How the results depend on the processing

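The members' median lay below that of all genes in each of 23 other settings, 0 members were called in 22, and more members were lower than higher in 22. The exceptions were the paired fit on replicates 1 and 3, which called 242 genes and 1 member (NCL, -1.16), and normexp background correction, with 21 higher and 21 lower. Genes called were 0 without scaling, with normexp, for all probes unfiltered, for probes detected on all 6 arrays, on replicates 1 and 3 with no block, and with GC removed under the block; limma then gave 1, 1, 134, 1, 1 and 1242 genes at an unadjusted p under 0.05.

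Without scaling the members' median was -1.47 and 0 were higher, since all genes shifted to -1.06, against -0.01 for the members and 0.46 for all genes with normexp. Without the filter the members' median was -1.06 relative to all genes, whose dim probes lie at surrogate values. The filter on all 6 arrays left 16 members lower of 25 tested. With probe GC removed 7 were higher, with or without the block. Leaving out 1 array gave a median from -0.84 to -0.19 and 7 to 14 members higher; why these moved was not tested. Relative to all genes the median stayed between -0.62 and -0.23 there.

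The replicate block left the median at -0.47, changed no call and gave 1 gene called. Of 341 values for the 15 genes named by the rule, 332 kept direction and call. Reversed were NHP2L1 (-0.49) and POLR1C (-0.99) without scaling, UTP20 (0.12) with normexp, and POLR1C with array weights (-0.03), on replicates 1 and 3 (-0.24 in both fits), without mock replicate 2 (-0.16) and without NUDT16 replicate 2 (-0.08); without each other array it was at most 0.11. Members near background on NUDT16 replicate 2 are limited by its signal. The share of all genes that were lower moved from 54.2% to 48.8% with scaling to the 75th percentile over all spots, to 98.5% with none, and to 19.4% with normexp background correction.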
